A study of Homo sapiens with 4 samples.

Results

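The genes described here are 10 components of the microRNA pathway: the Argonautes AGO1, AGO2, AGO3 and AGO4, the nucleases DROSHA and DICER1 with their double-stranded RNA binding partners DGCR8 and TARBP2, and the scaffold proteins TNRC6A and TNRC6B. They were taken by name from a table of read counts for 35767 gene rows, and all 10 were present and passed the filter on low counts. The counts come from 4 RNA sequencing libraries of SAS cells, an established line from a human squamous carcinoma of the tongue. In 2 libraries the cells are labelled siNAT10, for a small interfering RNA (siRNA) against NAT10, the enzyme that places acetylcytidine on RNA. The titles label 2 libraries siControl, for a control siRNA, so by the titles both groups received an siRNA. The sample descriptions instead read KO_1 and KO_2 for the siNAT10 libraries, and NC_1 and NC_2 for the siControl libraries. The genotype label names a NAT10 knockdown in siNAT10 replicate 1 and a NAT11 knockdown in siNAT10 replicate 2, NAT11 being another name of NAA40, and reads wild type in both siControl libraries. The titles number biological replicates, and since no separate cultures are named, each p-value speaks only of how far these libraries vary, which may be technical variation.

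MicroRNAs are cut from long primary transcripts in the nucleus by the Microprocessor, which pairs the nuclease DROSHA with DGCR8. Exportin-5 carries the hairpin precursor to the cytoplasm, where DICER1, helped by TARBP2, trims it to a short duplex, and heat shock chaperones help to load that duplex into an Argonaute. The Argonaute keeps 1 strand as a guide, pairs mainly through its seed with messenger RNAs, and recruits TNRC6 proteins, which call in deadenylases and decapping factors that silence the target.

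The transcript that the siRNA targets, NAT10, was no lower in siNAT10 than in siControl. It was at 252 and 248 CPM (counts per 1000000 counts of the scaled library size) in siNAT10 replicates 1 and 2, against 240 and 231 CPM in siControl replicates 1 and 2. In the quasi-likelihood test of edgeR its log2 fold change was 0.09 ± 0.06 (SE, 2 libraries each, adjusted p = 0.293), and it turned to -0.02 under scaling to library totals alone. NAA40 was at 18.6 and 18.2 CPM in siNAT10 against 22.1 and 18.8 CPM in siControl (-0.15 ± 0.10, edgeR adjusted p = 0.255). NAA40 was called lower in 1 of 14 alternatives, totals alone (-0.26, edgeR adjusted p = 0.0491), and was at -0.03 without siControl replicate 1. A loss of the targeted transcript was thus not seen, and directions are those of the libraries labelled siNAT10 relative to those labelled siControl.

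Total counts ranged from 30794757 to 36341785 per library, and the 10 genes had between 212 and 15140 counts each. Mitochondrial transcripts took 5.42% and 6.0% of counts in the libraries labelled siNAT10, against 4.79% and 4.74% in siControl. Of 9 squamous epithelial markers 8 were found, with 3 of them (KRT5, TP63 and DSG3) below 1 CPM, and their summed level was 813 and 860 CPM in siNAT10 against 1078.8 and 1107.6 CPM in siControl. Within that sum KRT17 was at 542 and 586 CPM in siNAT10 against 821 and 865 CPM in siControl, while SFN was at 263 and 267 CPM against 244 and 228 CPM. Leukocyte markers summed to 53.4 and 53.8 CPM in siNAT10 against 49.7 and 52.3 CPM in siControl, nearly all of it CD68, with PTPRC at or under 0.105 CPM in every library. Summed fibroblast markers were at 31.7 and 30.5 CPM in siNAT10 against 34.1 and 37.7 CPM in siControl, and endothelial markers at 3.35 and 3.76 CPM against 2.52 and 3.01 CPM. The part of these differences in the results that follow was not tested, and in pooled cells fewer cells of a type and less RNA per cell cannot be told apart.

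DROSHA was higher, and AGO4, TNRC6A, DICER1 and TARBP2 were lower, in the libraries labelled siNAT10. Of the 10 genes 5 were called at an edgeR adjusted p below 0.05, 1 of them higher and 4 lower. Across all genes, 40.4% of 20098 tested rows were called, 19.7% higher and 20.7% lower, so a call on 5 of 10 genes was near the background. The median log2 fold change of the 10 genes was -0.17, against -0.008 over all tested rows. The CPM values of the groups did not overlap for 9 of the 10 genes, AGO1 being the exception, and the groups were also apart in 69.5% of all tested rows.

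**Figure D1:**
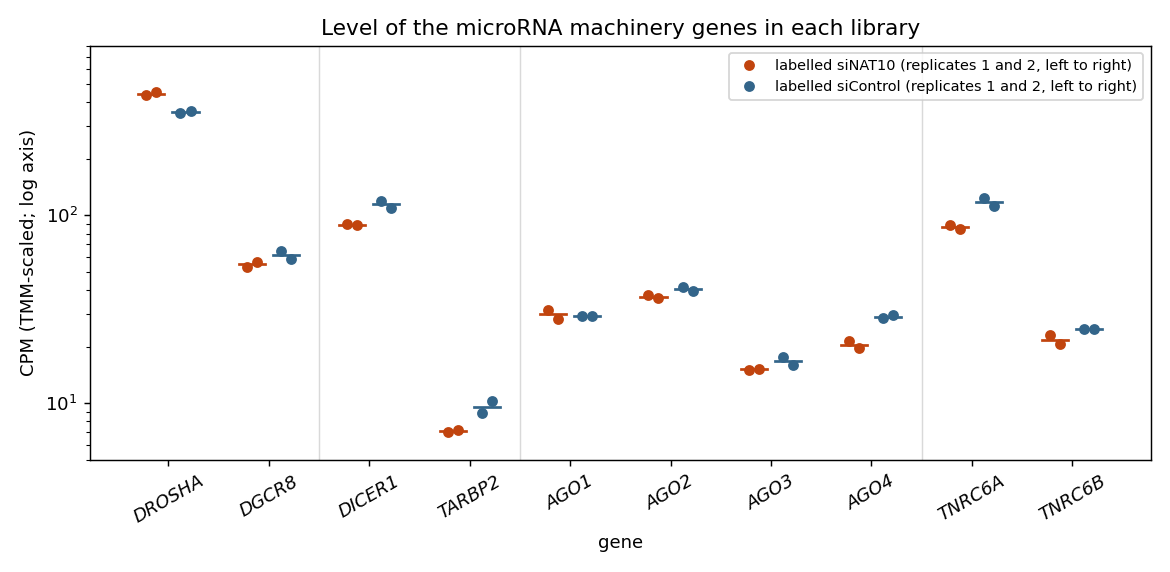
Level of each of the 10 genes in each library, in CPM on a log axis, with siNAT10 libraries left of siControl libraries and a short line at each group mean (n = 2). DROSHA sits above siControl in both siNAT10 libraries, while DICER1, TARBP2, AGO4 and TNRC6A sit below it, and the AGO1 points of the groups overlap.

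The promoters of 3 of the called genes are shown because these genes moved in opposite directions or belong to different steps of the pathway: DROSHA, the only gene of the 10 called higher, and AGO4 and TNRC6A, those lower by the largest log2 fold changes. Each is the stretch of 250 bases before a RefSeq gene start on GRCh38.p14, written 5′ to 3′ on the strand of the gene, with capitals marking CCAAT boxes (CCAAT or its reverse complement ATTGG) and GC boxes (GGGCGG or CCGCCC). DROSHA lies at chr5:31532094-31532343 on the minus strand, AGO4 at chr1:35807766-35808015 on the plus strand, and TNRC6A at chr16:24729401-24729650 on the plus strand.
DROSHA: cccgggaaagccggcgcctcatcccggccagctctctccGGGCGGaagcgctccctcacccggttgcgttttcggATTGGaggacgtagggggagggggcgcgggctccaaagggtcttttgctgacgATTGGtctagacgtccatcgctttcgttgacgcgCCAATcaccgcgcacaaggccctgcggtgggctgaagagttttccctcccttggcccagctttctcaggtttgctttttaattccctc
AGO4: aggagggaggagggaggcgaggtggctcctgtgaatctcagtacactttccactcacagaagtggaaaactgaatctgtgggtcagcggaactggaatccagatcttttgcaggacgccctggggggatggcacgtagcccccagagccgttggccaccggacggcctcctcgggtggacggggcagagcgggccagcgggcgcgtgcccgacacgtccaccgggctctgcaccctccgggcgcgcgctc
TNRC6A: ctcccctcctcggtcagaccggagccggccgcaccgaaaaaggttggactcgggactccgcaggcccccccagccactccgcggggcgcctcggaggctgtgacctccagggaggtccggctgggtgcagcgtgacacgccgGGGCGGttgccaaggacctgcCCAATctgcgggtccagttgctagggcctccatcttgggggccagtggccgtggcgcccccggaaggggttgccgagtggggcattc

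The DROSHA stretch holds 3 CCAAT boxes and 1 GC box, the TNRC6A stretch 1 of each, and the AGO4 stretch neither. Among 35116 RefSeq stretches of the same length, 32.0% held a CCAAT box on either strand and 42.6% a GC box. RefSeq gave 15 such stretches for 9 of the 10 genes, of which 9 held a CCAAT box and 10 a GC box. Among genes not called, TNRC6B held 5 CCAAT boxes, DGCR8 4, AGO1 1 and AGO3 0. Among genes called lower, the TARBP2 stretches held 3, 0 and 1 CCAAT boxes, and the DICER1 stretches 1, 0, 0, 1 and 0. CCAAT boxes were thus not particular to the gene called higher. The E-box CACGTG, which is its own reverse complement, was in 0 of the 15, against 6.34% of all stretches. The TNRC6A start used by RefSeq lies inside the gene span of the count table, which begins further upstream. A match describes letters only, and a missing match says nothing of a factor.

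Of the Microprocessor genes, DROSHA was called higher and DGCR8 was not called. DROSHA, the nuclease that makes the first cut in a primary microRNA transcript, lies at chr5:31400497-31532196 on the minus strand (GRCh38). It was at 437 and 454 CPM in siNAT10 replicates 1 and 2, against 353 and 358 CPM in siControl replicates 1 and 2. Both libraries labelled siNAT10 stood above both siControl libraries, and the gap was several times the spread within either group. Means were 446 ± 12.0 CPM in siNAT10 and 355 ± 3.56 CPM in siControl (SD, n = 2 each), which was 1.25-fold higher (log2 fold change 0.33 ± 0.06, edgeR adjusted p = 0.00033). With 13293 to 15140 counts per library, DROSHA was the most deeply counted of the 10 genes.

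DGCR8, which binds the stem of the primary hairpin and positions DROSHA, lies at chr22:20080232-20111877 on the plus strand. It was at 53.4 and 56.5 CPM in siNAT10, against 64.5 and 58.4 CPM in siControl. The groups did not overlap, but siNAT10 replicate 2 and siControl replicate 2 lay close together. The log2 fold change was -0.16 ± 0.08, with a 95% interval from -0.32 to -0.003 and an edgeR adjusted p of 0.0983. DGCR8 was called lower without siControl replicate 2 (-0.23, edgeR adjusted p = 0.0168) and when libraries were scaled by totals alone (-0.27, edgeR adjusted p = 0.0079).

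At its 3′ end DGCR8 shares 12 bases with TRMT2A and 526 bases with AC006547.8, both on the opposite strand. TRMT2A was at 23.4 and 20.9 CPM in siNAT10 against 18.9 and 18.8 CPM in siControl (0.24 ± 0.10, edgeR adjusted p = 0.0574). The strand setting of the counting is not given in the sources used here, so reads of a gene and of its antisense partner cannot be told apart in the shared bases. Per length of exon, DROSHA over DGCR8 was a ratio of 7.69 and 7.55 in siNAT10, against 5.14 and 5.76 in siControl. The ratio was above siControl in both libraries labelled siNAT10 (exact two-sided permutation p = 0.333, the smallest that 2 against 2 libraries allow).

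DGCR8 is also a substrate of its own complex: the Microprocessor is known to cut hairpins inside DGCR8 messenger RNA. The mature microRNAs of these exonic hairpins are shown, from RefSeq on GRCh38.p14, with the seed (bases 2 to 8) in capitals. They lie at chr22:20085797-20085818, chr22:20086072-20086093 and chr22:20086112-20086129 on the plus strand, and no seed is shared among them.
hsa-miR-3618: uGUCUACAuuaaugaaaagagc
hsa-miR-1306-5p: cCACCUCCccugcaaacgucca
hsa-miR-1306-3p: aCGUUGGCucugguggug

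The counts are of gene rows and hold no mature microRNA level, so the products of these hairpins were not measured.

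At the Dicer step the nuclease and its partner were both lower. DICER1, which cuts the precursor hairpin to a duplex, lies at chr14:95086228-95158010 on the minus strand. It was at 90.1 and 88.7 CPM in siNAT10, against 119 and 110 CPM in siControl. Both libraries labelled siNAT10 were below both siControl libraries, and the siNAT10 pair differed less than the siControl pair. Means were 89.4 ± 1.00 CPM in siNAT10 and 115 ± 6.25 CPM in siControl (SD, n = 2 each), which was 1.28-fold lower (log2 fold change -0.36 ± 0.07, edgeR adjusted p = 0.000326).

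DICER1-AS1, an antisense transcript that shares 80 exon bases with DICER1, was lower as well. It was at 3.38 and 3.79 CPM in siNAT10 against 5.61 and 5.22 CPM in siControl (-0.60 ± 0.17, edgeR adjusted p = 0.00835). Its level never passed 4.74% of that of DICER1 in CPM, and its part in the DICER1 difference was not tested. An intron of DICER1 holds the hairpin of miR-3173, at chr14:95137923-95137944 and chr14:95137961-95137982 on the minus strand, whose arms are shown with seeds in capitals because they lie in the transcript of the enzyme that trims such hairpins.
hsa-miR-3173-3p: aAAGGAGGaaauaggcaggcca
hsa-miR-3173-5p: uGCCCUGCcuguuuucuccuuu

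TARBP2, the double-stranded RNA binding protein that works beside DICER1, lies at chr12:53500921-53506431 on the plus strand. It was at 7.04 and 7.18 CPM in siNAT10, against 8.84 and 10.2 CPM in siControl. These were 244 and 212 counts in siNAT10 and 337 and 379 counts in siControl, the lowest of the 10 genes. All siNAT10 values were below all siControl values, and siControl replicate 2 stood highest. Means were 7.11 ± 0.0932 CPM in siNAT10 and 9.52 ± 0.961 CPM in siControl (SD, n = 2 each), which was 1.34-fold lower (log2 fold change -0.42 ± 0.13, edgeR adjusted p = 0.0165).

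The TARBP2 call was the least firm of the 5. It was lost without siControl replicate 2 (-0.31, edgeR adjusted p = 0.149), without siNAT10 replicate 1 (adjusted p = 0.0674), without siNAT10 replicate 2 (adjusted p = 0.0512) and with DESeq2 (adjusted p = 0.0713), and it held in 10 of 14 alternatives. TARBP2 shares 16 exon bases with RP11-793H13.11, which was at 0.144 to 0.406 CPM. Per length, DICER1 over TARBP2 was 4.26 and 4.11 in siNAT10 against 4.48 and 3.59 in siControl, so the groups overlapped in this ratio (exact two-sided permutation p = 1.0).

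Among the Argonautes AGO4 was the only one called. AGO4, whose protein binds small RNAs but is not known to slice targets efficiently, lies at chr1:35808172-35857890 on the plus strand. It was at 21.3 and 19.6 CPM in siNAT10, against 28.3 and 29.3 CPM in siControl. Both siNAT10 libraries were far below both siControl libraries relative to the spread within the groups. Means were 20.5 ± 1.16 CPM in siNAT10 and 28.8 ± 0.727 CPM in siControl (SD, n = 2 each), which was 1.41-fold lower (log2 fold change -0.49 ± 0.09, edgeR adjusted p = 0.000241). AGO4 was called lower in 14 of 14 alternatives, at log2 fold changes from -0.60 to -0.43.

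AGO1 and AGO3 follow AGO4 on the same strand of chromosome 1, with 11917 bases between AGO4 and AGO1 and 189 bases between AGO1 and AGO3. AGO1 (chr1:35869808-35930528), a general carrier of microRNAs, was at 31.5 and 28.0 CPM in siNAT10 against 29.2 and 29 CPM in siControl. The siControl values fell between the siNAT10 values. Its log2 fold change was 0.03 ± 0.09 (95% interval -0.15 to 0.22, edgeR adjusted p = 0.796), and the sign turned with totals alone (-0.08) and without siNAT10 replicate 1 (-0.05).

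AGO3 (chr1:35930718-36072500) was at 15.1 and 15.2 CPM in siNAT10 against 17.5 and 16.0 CPM in siControl. The siNAT10 libraries were the lower pair, with siControl replicate 2 near them. The log2 fold change was -0.14 ± 0.10 (95% interval -0.36 to 0.07, edgeR adjusted p = 0.287), and AGO3 was called in none of 14 alternatives. RP4-665N4.8, which shares 86 exon bases with AGO3 on the opposite strand and reached 14.5% of its CPM, was at 1.27 and 0.914 CPM in siNAT10 against 1.92 and 2.31 CPM in siControl (-0.94 ± 0.28, edgeR adjusted p = 0.0124). AGO1 shares 396 exon bases with the antisense row RP4-789D17.5, which never passed 1.28% of the CPM of AGO1.

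AGO2, the Argonaute best known for cutting its targets, lies on chromosome 8 (140520156 to 140635619, minus strand). It was at 37.7 and 36.2 CPM in siNAT10, against 41.5 and 39.5 CPM in siControl. Both siNAT10 values were below both siControl values by a small margin. The log2 fold change was -0.13 ± 0.08 (95% interval -0.30 to 0.03, edgeR adjusted p = 0.194), and AGO2 was called lower only when libraries were scaled by totals alone (-0.25, edgeR adjusted p = 0.0194). It shares 47 exon bases with RP11-642A1.2, at 0.42 to 0.846 CPM.

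Among the 4 Argonautes, AGO4 had the highest level per length in both groups, and its share was smaller in the libraries labelled siNAT10. Per kilobase of annotated exon, AGO4 made up 35.3% and 35.0% of the summed Argonaute level in siNAT10 replicates 1 and 2, against 41.2% and 43.0% in siControl replicates 1 and 2. AGO1 made up 27.4% and 26.1% in siNAT10 against 22.3% and 22.3% in siControl. For AGO2 the shares were 28.7% and 29.6% in siNAT10 against 27.8% and 26.6% in siControl.

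AGO3 held the smallest share, 8.61% and 9.31% in siNAT10 against 8.76% and 8.05% in siControl, and its groups overlapped. The differences in mean share were -6.95 percentage points for AGO4, 4.46 for AGO1 and 1.94 for AGO2, each with groups apart and at the smallest exact two-sided permutation p that the design allows (0.333). Shares are parts of the same sum, so a smaller share of AGO4 enlarges those of the others together. The log2 fold changes of AGO1 and AGO2 themselves were 0.03 and -0.13, and neither gene was called. On raw counts, not divided by length, AGO2 held the largest share, a mean of 36.1% in siNAT10 and 35.2% in siControl (difference 0.923 points), and AGO4 held 20% in siNAT10 and 25.0% in siControl. The summed level was 8.29 and 7.72 CPM per kb in siNAT10 against 9.44 and 9.37 CPM per kb in siControl. As a ratio per length, AGO4 over AGO1 was 1.29 and 1.34 in siNAT10 against 1.85 and 1.93 in siControl.

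**Figure D2:**
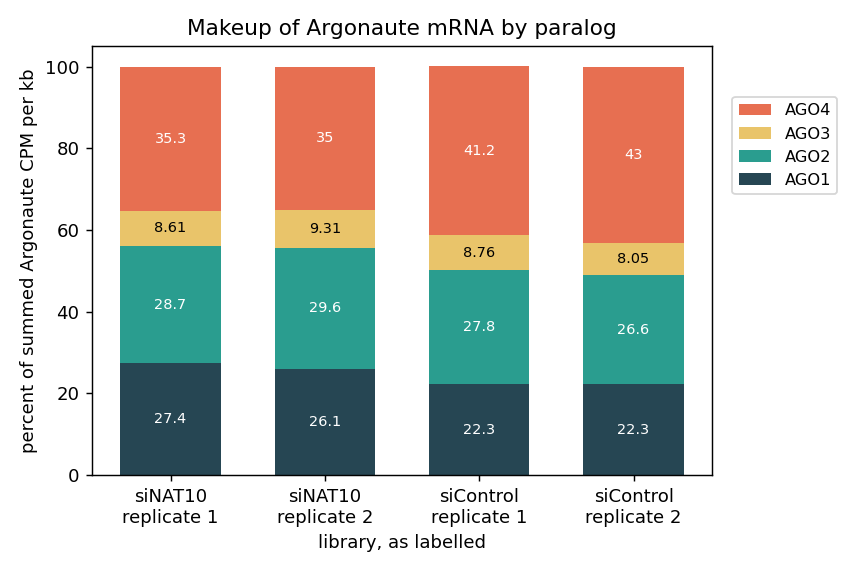
Share of each Argonaute in the summed Argonaute CPM per kb of exon, as a percent, with 1 stacked bar per library and siNAT10 left of siControl. AGO4 takes 35.3% and 35.0% in siNAT10 against 41.2% and 43.0% in siControl. AGO1, whose own level was not called, takes a larger share in siNAT10 than in siControl.

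Of the scaffold proteins that link Argonautes to the deadenylases, TNRC6A was called lower and TNRC6B was not called. TNRC6A (chr16:24610209-24827632, plus strand) was at 88.8 and 84.4 CPM in siNAT10, against 124 and 112 CPM in siControl. Every siNAT10 value was below every siControl value. Means were 86.6 ± 3.14 CPM in siNAT10 and 118 ± 8.48 CPM in siControl (SD, n = 2 each), which was 1.37-fold lower (log2 fold change -0.45 ± 0.07, edgeR adjusted p = 4.6e-05). This was the smallest adjusted p of the 10 genes.

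TNRC6B (chr22:40044817-40335808, plus strand) was at 23.0 and 20.6 CPM in siNAT10, against 24.8 and 24.7 CPM in siControl. Its siNAT10 values were the lower pair, and they differed from each other more than siNAT10 replicate 1 differed from siControl. The log2 fold change was -0.18 ± 0.09 (95% interval -0.38 to 0.01, edgeR adjusted p = 0.132), and TNRC6B was called lower only with totals alone (-0.29, edgeR adjusted p = 0.0172). Per length, TNRC6A over TNRC6B was 5.97 and 6.33 in siNAT10 against 7.76 and 7.03 in siControl. The siNAT10 ratios were the lower pair (exact two-sided permutation p = 0.333, the smallest possible).

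**Figure D3:**
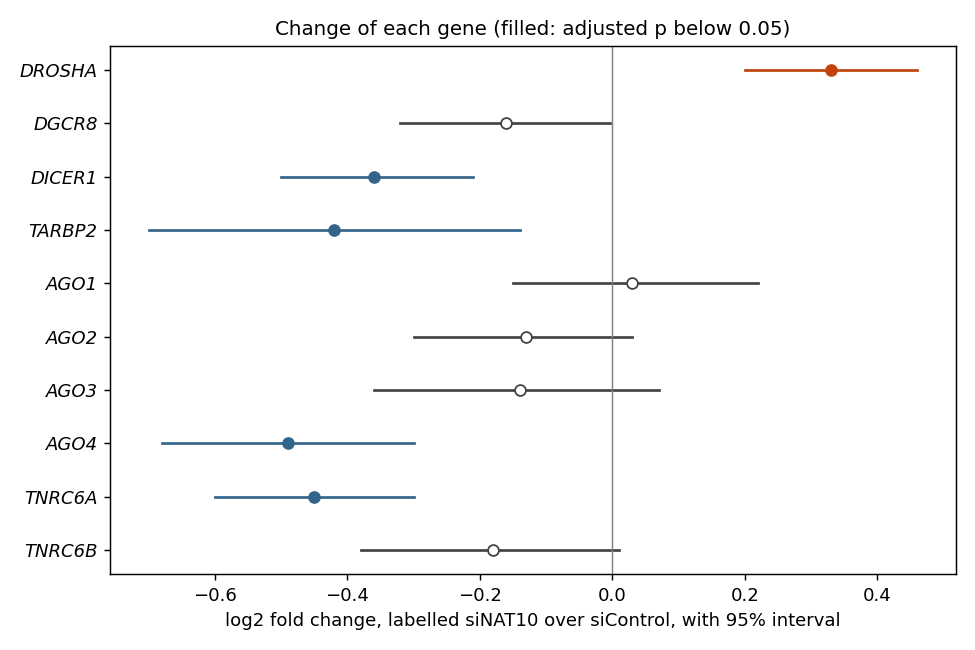
Log2 fold change of each gene, siNAT10 over siControl, with its 95% interval from the edgeR fit (n = 2 per group) and filled points at an adjusted p below 0.05. DROSHA lies at 0.33, the 4 genes called lower between -0.49 and -0.36, and the intervals of AGO1, AGO2, AGO3 and TNRC6B cross 0.

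By level per length DROSHA stood far above the other genes in every library. DROSHA averaged 57.3 CPM per kb in siNAT10 and 45.7 CPM per kb in siControl, and its mean over all libraries was at percentile 95.6 of tested rows. In siNAT10 it was followed by DGCR8 (7.52 CPM per kb), DICER1 (7.27) and TNRC6A (6.7), with DGCR8 and DICER1 overlapping over libraries. In siControl the order was DICER1 (9.32 CPM per kb), TNRC6A (9.16) and DGCR8 (8.4), where neighbours overlapped.

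The median tested row was at 2.53 CPM per kb. Averaged over all libraries, AGO1, AGO2, AGO4 and TARBP2 lay between percentiles 44.9 and 56.9 of tested rows, TNRC6B at percentile 33 and AGO3 at percentile 24.8. In siNAT10 the order was AGO4 (2.81 CPM per kb), AGO2 (2.33), AGO1 (2.14), TARBP2 (1.74), TNRC6B (1.09) and AGO3 (0.716). In siControl it was AGO4 (3.96 CPM per kb), AGO2 (2.56), TARBP2 (2.33), AGO1 (2.10), TNRC6B (1.24) and AGO3 (0.791), and AGO2 and TARBP2 overlapped. TARBP2 thus stood after AGO1 in siNAT10 and before it in siControl. The length is that of all annotated exons joined, so a gene with a long unused exon appears lower on this scale.

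Most of the 10 genes have long exons, and calls varied with length. When tested rows were split by exon length into 5 groups of like size, 9 of the 10 genes fell in the group with the longest exons, where 49.5% of rows were called and the median log2 fold change was -0.04. In the group with the shortest exons the median was 0.07. With the trend over length removed, 5 of the 10 genes were called.

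The cofactors that act around these genes were described from 10 lists of 88 genes, of which 85 were tested. In all, 33 were called higher, 7 lower and 45 were not called, which is 47.1% called (40.4% of all tested rows) with a median log2 fold change of 0.08 (-0.008 over all tested rows). Microprocessor cofactors and the chaperones that load Argonautes each gave 8 of the 33 calls higher. The share over all tested rows includes thinly counted rows. Among rows with at least 50 counts in 2 libraries, 7556 of 15430 were called, and 41 list genes.

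Of 11 tested Microprocessor cofactors 8 were called higher, 1 lower and 2 were not called, with a median of 0.34. This is 81.8% called, against 40.4% of all tested rows. SRRT (ARS2), which ties primary microRNA processing to the cap-binding complex, was at 688 and 665 CPM in siNAT10 against 409 and 423 CPM in siControl (0.70 ± 0.06, edgeR adjusted p = 4.11e-08). ILF2, an RNA binding protein known to hold back primary microRNA processing, was at 364 and 369 CPM in siNAT10 against 266 and 270 CPM in siControl (0.45 ± 0.06, edgeR adjusted p = 9.68e-06), and its row overlaps SNAPIN. The gene called lower was the helicase DDX17 (-0.26, edgeR adjusted p = 0.00441), named after its value was seen. Known members of this list include both activators and inhibitors of processing.

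For export, RAN, the GTPase that drives it, was at 247 and 267 CPM in siNAT10 against 187 and 183 CPM in siControl (0.47 ± 0.07, edgeR adjusted p = 1.09e-05). XPO5, the export receptor of precursor hairpins, was at 47.9 and 48.6 CPM in siNAT10 against 47.6 and 40.8 CPM in siControl (0.12, edgeR adjusted p = 0.247). XPO5 was called higher without siControl replicate 1 (0.24, adjusted p = 0.0254), and it overlaps RP3-337H4.10. Neither Dicer partner was called: PRKRA (PACT), a relative of TARBP2, was at 0.22 on the log2 scale (edgeR adjusted p = 0.184, called higher without siControl replicate 2 at 0.37) and ADAR, an RNA editing enzyme known to bind DICER1, at 0.08 (adjusted p = 0.375, turning to -0.03 with totals alone).

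Of 10 chaperones and cochaperones linked to Argonaute loading 8 were called higher and 2 were not called, with a median of 0.54. This is 80% called, against 40.4% of all tested rows. HSPA8, the constitutive HSP70, was at 1576.9 and 1737.4 CPM in siNAT10 against 585 and 569 CPM in siControl (1.52 ± 0.07, edgeR adjusted p = 2.04e-12), and its row overlaps small nucleolar RNA genes. HSP90AA1, the inducible HSP90, rose by 0.97 ± 0.06 (edgeR adjusted p = 3.46e-10) and STIP1, which joins HSP70 to HSP90, by 0.74 ± 0.06 (adjusted p = 2.3e-08). Chaperones serve most cellular proteins, so this list is not particular to Argonautes. Their rise was known when the list was written, so its share of calls is no independent evidence.

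Of 9 tested Argonaute partners 3 were called higher, 1 lower and 5 were not called, which is 44.4% called (40.4% of all tested rows). AJUBA, a LIM protein that binds Argonautes, was at 30.6 and 31.3 CPM in siNAT10 against 41.7 and 38.1 CPM in siControl (-0.37 ± 0.08, edgeR adjusted p = 0.00156), and it overlaps RP11-298I3.5. FXR1, an RNA binding protein of the FMR1 family (0.19, edgeR adjusted p = 0.0266), and IPO8, an import receptor that binds Argonautes (0.18, adjusted p = 0.0445), were near the threshold. FXR1 lost its call without siControl replicate 1 and without each siNAT10 library (adjusted p 0.101 to 0.155), and with totals alone (adjusted p = 0.34). IPO8 lost its call in 6 of 14 alternatives: with the replicate number as a block (adjusted p = 0.0561), DESeq2 (0.0667), no count filter (0.0554) and totals alone (0.452), and without siControl replicate 1 (0.0808) or siNAT10 replicate 1 (0.427).

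The PIWI clade, the germline relatives of the Argonautes, was at low levels, and 3 of its 4 genes were tested. PIWIL1 had 1 and 0 counts in siNAT10 and 1 and 0 counts in siControl and was not tested. PIWIL2 and PIWIL3 were at or below 1.08 CPM in every library. PIWIL4 was at 1.01 and 1.76 CPM in siNAT10 against 2.62 and 1.70 CPM in siControl, with overlapping groups (-0.66, edgeR adjusted p = 0.0948), and was called lower without siControl replicate 2 (-0.94) and without siNAT10 replicate 2 (-1.09).

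Of 7 genes linked to Argonaute modification 2 were called lower (28.6% called, against 40.4% of all tested rows) and 5 were not called. Both were subunits of prolyl 4-hydroxylase, which hydroxylates collagen and also AGO2. P4HA1 was at 64.3 and 62.4 CPM in siNAT10 against 89.1 and 96.7 CPM in siControl (-0.55 ± 0.07, edgeR adjusted p = 4.12e-06). P4HB was at 489 and 487 CPM in siNAT10 against 553 and 585 CPM in siControl (-0.22 ± 0.06, edgeR adjusted p = 0.00841), and its call was lost without siNAT10 replicate 1 (adjusted p = 0.0760) and without siNAT10 replicate 2 (adjusted p = 0.0898). P4HA1 overlaps RP11-344N10.2 and P4HB overlaps RP11-498C9.2.

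Downstream of the TNRC6 scaffolds, 4 of 14 genes were called (28.6%) in the list of CCR4-NOT and PAN deadenylase genes with PABPC1. Of 12 decapping and repression genes 6 were called (50%), against 40.4% of all tested rows. PABPC1, the poly(A) binding protein that TNRC6 proteins contact, was at 1530.9 and 1586.6 CPM in siNAT10 against 1022 and 945 CPM in siControl (0.66 ± 0.06, edgeR adjusted p = 1.1e-07). CNOT10, a subunit of CCR4-NOT, was at 25.3 and 25.9 CPM in siNAT10 against 39.9 and 44.8 CPM in siControl (-0.73 ± 0.09, edgeR adjusted p = 1.59e-06), and it overlaps CNOT10-AS1 and SUGT1P2. CNOT9, the CCR4-NOT subunit that binds TNRC6 proteins, rose by 0.28 (edgeR adjusted p = 0.0125), a call lost without siNAT10 replicate 2 (adjusted p = 0.0852) and with totals alone (adjusted p = 0.119).

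Of the decapping group 5 were called higher and 1 lower. PATL1, a scaffold of the decapping complex, was at 74.8 and 73.2 CPM in siNAT10 against 105 and 108 CPM in siControl (-0.53 ± 0.07, edgeR adjusted p = 4.06e-06), and it overlaps AP000442.1. EIF4ENIF1 (4E-T), which bridges repression complexes and cap-binding proteins, rose by 0.60 ± 0.08 (edgeR adjusted p = 9.17e-06), and its row overlaps SFI1. EIF4E2 (4EHP), a cap-binding repressor, rose by 0.43 ± 0.06 (edgeR adjusted p = 2.35e-05), and its row overlaps TIGD1.

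Of 15 tested genes of microRNA tailing and turnover 5 were called higher, 1 lower and 9 were not called. This is 40% called, against 40.4% of all tested rows. TSN and TSNAX, the subunits of the C3PO nuclease known to remove passenger strands, were higher by 0.37 ± 0.08 (edgeR adjusted p = 0.000821) and 0.36 ± 0.08 (adjusted p = 0.00106), and TSNAX overlaps the read-through TSNAX-DISC1. ZCCHC11 (TUT4), which adds uridines to precursors, was at 74.2 and 76.1 CPM in siNAT10 against 92.7 and 87.8 CPM in siControl (-0.26 ± 0.07, edgeR adjusted p = 0.00438), a call lost without siNAT10 replicate 1 (adjusted p = 0.0602). LIN28B, which blocks the processing of let-7 precursors and was named after its values were seen, was at 1.67 and 1.22 CPM in siNAT10 against 0.787 and 0.592 CPM in siControl (1.07 ± 0.34, edgeR adjusted p = 0.0174). Its call was lost with DESeq2 (adjusted p = 0.0809), without siControl replicate 2 (adjusted p = 0.0996) and without siNAT10 replicate 1 (adjusted p = 0.154).

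**Figure D4:**
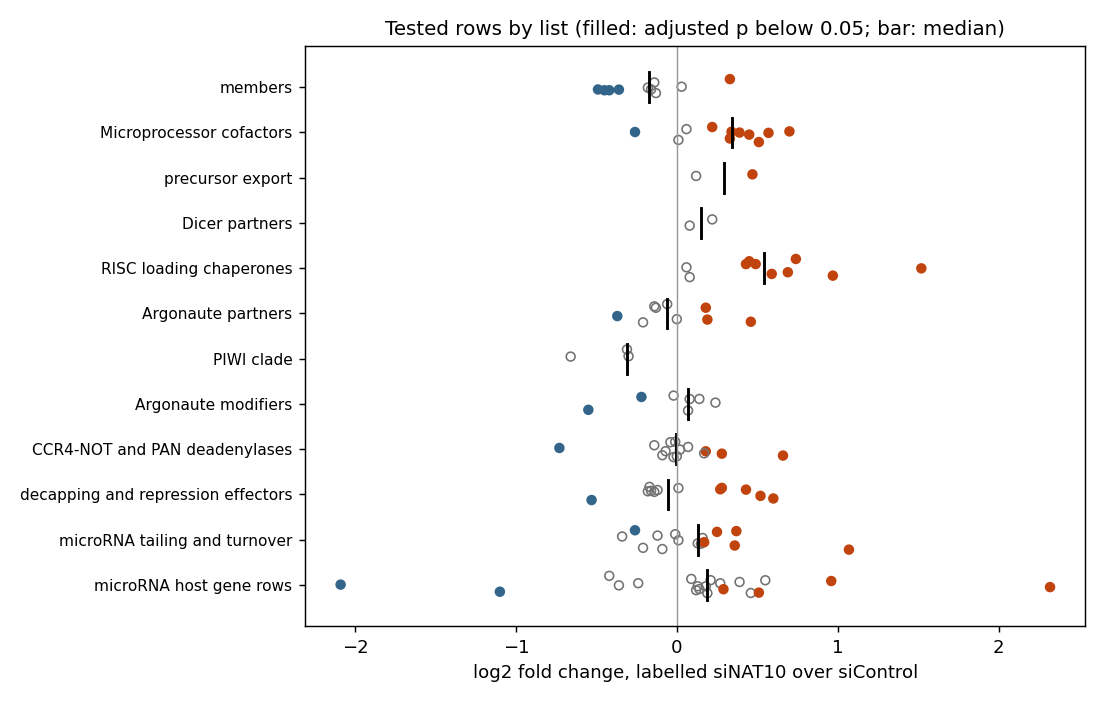
Log2 fold change, siNAT10 over siControl, of every tested gene of the 10 members, of each list and of the microRNA host gene rows, with filled points at an edgeR adjusted p below 0.05 and a bar at each median. The median was -0.17 for the members, 0.34 for the Microprocessor cofactors and 0.54 for the chaperones.

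Host genes are the transcripts from which some microRNAs are cut, and 35 rows carry a host gene name. Of these 20 were tested: 4 were called higher, 2 lower and 14 were not called, which is 30% called, against 40.4% of all tested rows. The microRNAs of 3 called hosts are shown, from RefSeq on GRCh38.p14 with seeds in capitals: 1 host lower, 1 higher and 1 whose microRNAs share a seed. The miR-22 arms lie in an exon of MIR22HG (chr17:1713914-1713935 and chr17:1713952-1713973, minus strand), miR-4435 in an intron of MIR4435-2HG (chr2:111321061-111321082, minus strand), and miR-221-3p and miR-222-3p in introns of MIR222HG (chrX:45746180-45746202 and chrX:45747036-45747056, minus strand). The last pair share the seed GCUACAU.
hsa-miR-22-3p: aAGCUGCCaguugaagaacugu
hsa-miR-22-5p: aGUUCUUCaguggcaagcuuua
hsa-miR-4435: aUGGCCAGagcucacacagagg
hsa-miR-221-3p: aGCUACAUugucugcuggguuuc
hsa-miR-222-3p: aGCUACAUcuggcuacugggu

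MIR22HG, the host of miR-22, was at 5.14 and 4.47 CPM in siNAT10 against 10.7 and 9.90 CPM in siControl. Both libraries labelled siNAT10 were well below siControl, a 2.14-fold difference (-1.10 ± 0.14, edgeR adjusted p = 4.27e-06) that was called in 14 of 14 alternatives. MIR4435-2HG was at 38.3 and 41.5 CPM in siNAT10 against 27.6 and 28.3 CPM in siControl (0.51 ± 0.08, edgeR adjusted p = 6.21e-05). A host row counts reads in the exons of the host and not the mature microRNA, which was not measured.

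MIR222HG, the host of miR-221 and miR-222, was at 3.18 and 2.5 CPM in siNAT10 against 1.73 and 1.18 CPM in siControl (0.96 ± 0.26, edgeR adjusted p = 0.00526). Its call was lost without siControl replicate 2 (adjusted p = 0.0509) and without siNAT10 replicate 1 (adjusted p = 0.0511). MIR646HG had 36 and 25 counts in siNAT10 against 3 and 11 counts in siControl and was called higher (edgeR adjusted p = 0.00185). MIR1-1HG had 2 and 3 counts in siNAT10 against 14 and 12 counts in siControl, and its call lower (edgeR adjusted p = 0.033) was lost on leaving out any 1 library, with DESeq2 (adjusted p = 0.156) and with no count filter (adjusted p = 0.0775). MIR600HG, which overlaps STRBP, stood at 0.29 on the log2 scale (edgeR adjusted p = 0.0298), a call lost on leaving out siControl replicate 2 or either siNAT10 library (adjusted p 0.0818 to 0.168), with DESeq2 (adjusted p = 0.0865) and with totals alone (adjusted p = 0.178).

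**Figure D5:**
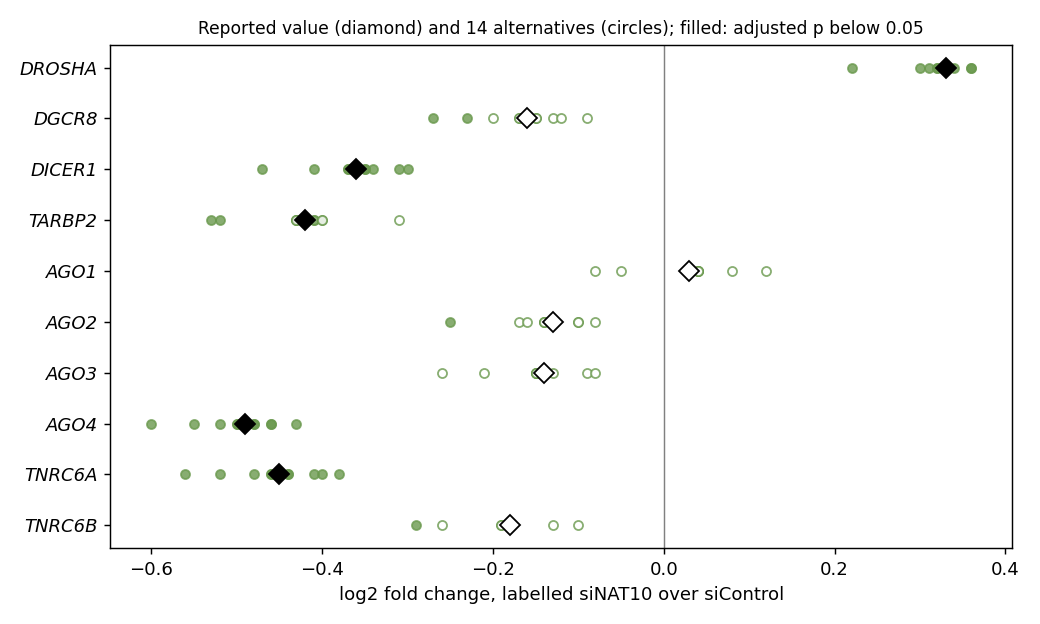
Log2 fold change of each gene, siNAT10 over siControl, in the reported fit (diamond) and in 14 alternatives (circles), filled at an adjusted p below 0.05. DROSHA, DICER1, AGO4 and TNRC6A are filled in 14 of 14 alternatives, TARBP2 in 10 of 14, and AGO3 in none.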

How the data were processed

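The 4 libraries were grouped by their titles. Per the labels, RNA was isolated with TRIzol, and paired-end libraries were made with the KC Digital mRNA kit. The submitters' processing notes list fastp 0.23.4, STAR 2.5.3a and featureCounts, with GRCh38 as the build. Which annotation release, strand setting or molecular identifiers were used is not given in the sources used here. Each deposited value is a raw count for a gene row. Between 72.0% and 73.5% of counts from 1 to 50 were even, so a count may be 1 mate of a pair. All 10 genes had the gene start and end of GENCODE release 29, and 50.9% of tested rows shared exon bases with another row.

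CPM values, on TMM-scaled library sizes, are given per library and as mean and SD over 2 libraries. The main test was the quasi-likelihood test of edgeR 4.0.16 in R 4.3.3, on counts kept by filterByExpr, with TMM factors from 0.959 to 1.05, robust glmQLFit and group as the only term (2 residual degrees of freedom before shrinkage). Its two-sided p-values were adjusted by Benjamini-Hochberg over 20098 rows, with calls below 0.05. A floor of 3 counts was 0.0825 to 0.0974 CPM. Intervals cover the spread between libraries and counting error, not PCR copies. The script was tested on simulated counts, where 38% of genes changed 1.25-fold and 86% of those changed 1.5-fold were recovered. At each fold 50 of 19697 tested genes were changed there, while 8120 of 20098 rows were called here. Adjustment was thus stricter in the simulation, so its recovery cannot be carried over to these calls. Of the 10 genes, those not called had intervals reaching log2 fold changes of -0.38 (TNRC6B), -0.36 (AGO3), -0.32 (DGCR8) and -0.30 (AGO2). That of AGO1 ran from -0.15 to 0.22. A decrease of about 1.25-fold thus lay within the intervals of TNRC6B and AGO3, and outside that of AGO1. DESeq2 1.42.0 and limma 3.58.1 (voom) were alternatives, beside other filters and scalings and leaving out each library.

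Libraries of a group differed beyond simple sampling noise (chi-square per degree of freedom 5.14 for siNAT10 and 8.68 for siControl), so neither was a copy of the other. These values cannot tell separate cultures from repeat preparations. The 10 genes and the lists were chosen with earlier results of these data known, including the rise of the chaperones, so no list is independent evidence. Of each list up to 3 called genes with the smallest adjusted p were named, or, with none called, the largest change, lists of 4 or fewer genes could be named in full, and up to 6 called host rows were named. A gene that this rule names is not reported here. Host rows are those whose name starts with MIR and ends in HG. Sequences are from RefSeq tables on GRCh38.p14.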

Additional observations from a re-analysis of the deposited data

How the results depend on the processing

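Of 140 combinations of the 10 genes with 14 alternatives, 130 left the direction and the side of the threshold as reported, 4 lost a call, 4 gained one and 2 turned the sign. Scaling by library totals alone shifted the median of all rows to -0.12, so that 8 of the 10 genes were called, 7 of them lower, and all rows split into 2689 higher and 5601 lower, against 3951 and 4169 as reported. Under it NAT10 was at -0.02, AGO1 at -0.08 and ADAR at -0.03. Over the fits that leave out 1 library, AGO1 ranged from -0.05 to 0.12, PIWIL2 from -1.15 to 0.27 and PIWIL3 from -1.31 to 0.35, each turning sign only without siNAT10 replicate 1. With rows that overlap another row in their exons left out, except those of the 10 genes, 3937 rows were called, 1897 higher and 2040 lower, and 20 list genes against 40. That fit tested 9871 rows, against 20098 rows in the reported fit, where 8120 were called. List genes that overlap another row were left out as well, so 20 and 40 are counts over different sets of genes. The AGO2 share differed by 0.923 percentage points on raw counts, where long genes weigh more.

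Leaving out 1 library at a time gave 4 to 5 of the 10 genes called, 6128 to 7795 rows called (2895 to 3818 higher, 3233 to 3977 lower), 28 to 45 list genes called, and a difference in AGO2 share of 1.35 to 2.52 points. DESeq2 called 4 of the 10 genes and 6256 rows. Replicate numbers did not pair the libraries (correlation of deviations -0.0329). With the replicate number as a block, 5 of the 10 genes, 8254 rows and 38 list genes were called. TARBP2, with 212 to 379 counts per library, was the most thinly counted of the 10 genes.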

Other observations

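The genes around the Argonaute cluster on chromosome 1 were described because AGO4 was called lower there and AGO1 and AGO3 were not called. Of 24 tested rows within 500 kb of the cluster 8 were called higher, 2 lower and 14 were not called, beside 40.4% called over all tested rows. CLSPN, which encodes the checkpoint adaptor claspin, was at 267 and 253 CPM in siNAT10 against 206 and 196 CPM in siControl (0.37 ± 0.07, edgeR adjusted p = 0.000136). THRAP3, a splicing and transcription cofactor, was at 656 and 654 CPM in siNAT10 against 499 and 501 CPM in siControl (0.39 ± 0.06, edgeR adjusted p = 4.51e-05). ZMYM4, a zinc finger gene, was at 70.4 and 64.5 CPM in siNAT10 against 84.0 and 86.6 CPM in siControl (-0.34 ± 0.07, edgeR adjusted p = 0.000775). Genes within the window thus lay on both sides of siControl.

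Next to DROSHA on chromosome 5, C5orf22 was at 37.0 and 38.4 CPM in siNAT10 against 33.5 and 33.1 CPM in siControl (0.18 ± 0.08, edgeR adjusted p = 0.082). PDZD2, which encodes a PDZ domain protein, was at 5.54 and 4.60 CPM in siNAT10 against 16.4 and 16.2 CPM in siControl (-1.68 ± 0.13, edgeR adjusted p = 5.09e-09). The neighbours named here were chosen after their values were seen.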
